A study of Mus musculus with 2 samples.

Results

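The genes described here mostly make, break down or sense cyclic AMP (cAMP). They were chosen by symbol and comprise the adenylyl cyclases (Adcy), the phosphodiesterases (Pde), the subunits of protein kinase A (PKA; Prkar and Prkac), the Epac exchange factors Rapgef3 and Rapgef4, and the transcription factors Creb1, Crem and the Creb3 family. Of the 16302 symbols in the joined WT and β-arr1 KO tables, 46 met this rule. The WT table listed 44 of them and the β-arr1 KO table listed 45.

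Astrocytes were cultured from the dentate gyrus (DG) of adult C57BL/6 mice (the knockout line was backcrossed to C57BL/6J) that were either wild type (WT) or carried a germline knockout of β-arrestin 1 (β-arr1 KO), with no other treatment. The labels describe 1 pooled, PCR amplified cDNA library per genotype, so no difference between WT and KO has a replicate check and no p-value is given. Expression is given as FPKM (fragments mapped per kilobase of a transcript and scaled by the library total), a level that is corrected for transcript length and library size. A gene counted as changed where its FPKM ratio of KO vs. WT was above 3/2 or below 2/3, the limits that the study used, and where it reached 1 FPKM in at least one library.

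Adenylyl cyclases form cAMP from ATP when Gs-coupled receptors are active, and phosphodiesterases hydrolyse it. cAMP binds the regulatory subunits of PKA and frees the catalytic subunits, which phosphorylate CREB among many other proteins, and it also activates Epac. β-arrestins uncouple receptors from G proteins and can bring phosphodiesterases of the Pde4 family to the activated receptor.

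The targeted gene was examined first. Arrb1 (chromosome 7, 106683996 to 106755281, mm9) had 7.62 FPKM in WT against 2.72 FPKM in KO. The ratio was 0.358, with a 95% interval of 0.301 to 0.424. This and the following intervals hold counting error only, on fragment numbers estimated from the deposited values (506 and 186 for Arrb1), and do not cover differences between animals or cultures.

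The cultures were compared with marker genes. The astrocyte marker Gfap had 189 FPKM in WT and 192 FPKM in KO, and all 10 astrocyte markers reached 1 FPKM, of which 4 were higher in KO (summed level 396 and 420 FPKM). Other cell types were also represented. Microglial markers summed to 1310 FPKM in WT and 989 FPKM in KO (1 of 10 lower), and fibroblast markers to 3117 and 2030 FPKM (5 of 7 lower). Oligodendrocyte lineage markers summed to 107 and 153 FPKM (4 of 8 higher). Skeletal muscle markers summed to 6.85 FPKM in WT and 59.1 FPKM in KO (5 of 5 higher), with Tnnc2 not listed in WT and with Myh3 and Myh1 not listed in KO. Neuronal markers summed to 83.3 and 104.5 FPKM, nearly all from Tubb3 and Stmn2, with Rbfox3 under 1 FPKM in both. Endothelial markers summed to 95.6 and 95.2 FPKM (2 higher and 1 lower of 9), with Cdh5 at 31.8 and 16.1 FPKM and a median ratio of 1.44. Smooth muscle and pericyte markers summed to 5778 and 5439 FPKM (1 of 8 lower). The part of these cell types in the values below was not tested, and in such bulk RNA fewer cells of a type and less RNA per cell cannot be told apart.

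At 1 FPKM or more in one of the libraries, 39 of the 46 genes were analysed. Pde1a, Pde9a, Adcy1 and Pde6h were higher in KO, no gene was lower, and 35 lay within the limits. The 4 changed genes were 10.3% of those analysed, while 17.8% of the 12646 genes analysed in all were changed, 9.56% higher and 8.28% lower. With only 4 changed genes, this share is a description only. At the same limits, the study reported a smaller share of changed genes among all those it analysed. Pde6h counted as higher only because the WT table has no row for it. A missing row is no measure of a low level, since 475 of the genes analysed were listed in one table only and 252 of these had at least 5 FPKM there. Among genes listed in both tables, 3 of 38 of the set were changed, and 14.6% of all. Of the 38 genes listed in both tables, 22 had a ratio above 1 and 16 a ratio below 1. Their median log2 ratio was 0.03, and that of all genes was 0.02. The counting interval left out 1 in 18 of the 38 genes (47.4%), compared with 40.1% of all genes. The remaining 7 genes, Adcy4, Adcy10, Pde1c, Pde4c, Pde6g, Creb3l3 and Creb3l4, were under 1 FPKM in both libraries.

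**Figure D1:**
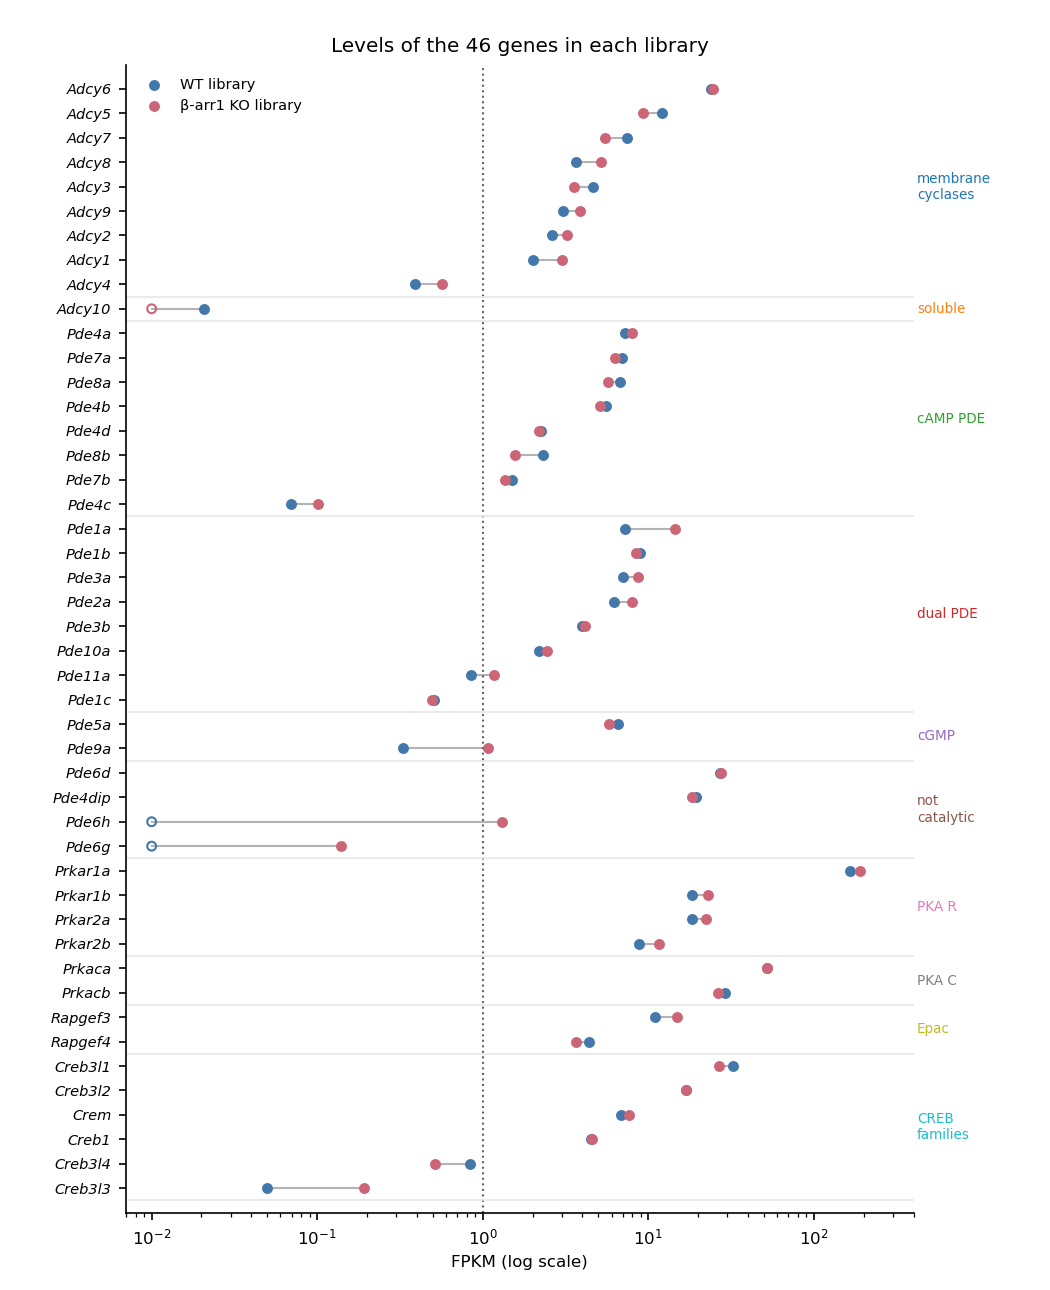
FPKM (log scale) of the 46 genes in the WT library (blue) and the β-arr1 KO library (red), grouped by role, with 1 library per genotype. Open circles at the left edge mark genes not listed in that table, and the dotted line marks 1 FPKM. The levels run from under 0.1 FPKM to 189 FPKM (Prkar1a in KO), and most pairs of points lie close together.

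**Figure D2:**
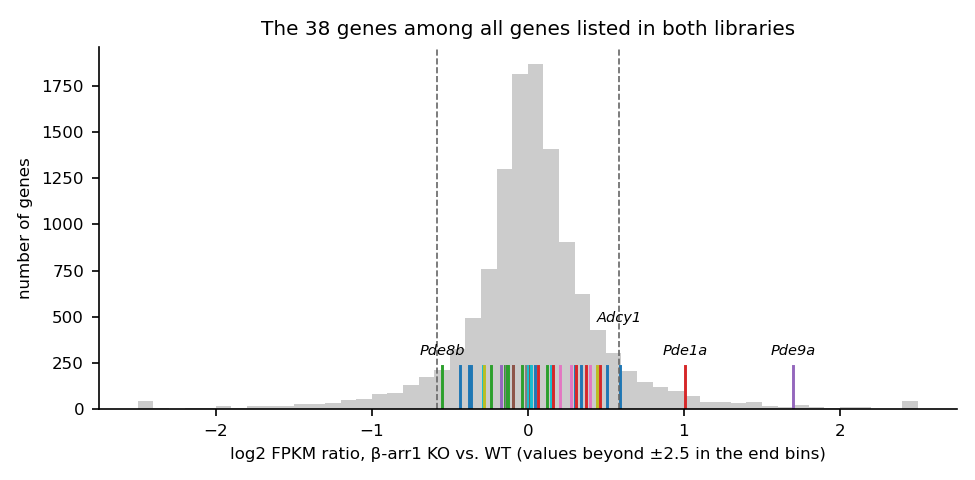
Histogram of the log2 FPKM ratio of KO vs. WT for all genes with at least 1 FPKM in one library and listed in both (grey). Coloured ticks mark the 38 genes of the cAMP system and dashed lines the limits of 3/2 and 2/3. Pde1a and Pde9a lie well above the upper limit, Adcy1 lies on it, and Pde8b is the gene nearest the lower limit.

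Among the membrane adenylyl cyclases, Adcy6 was the most abundant. Adcy6 (chromosome 15, 98420421 to 98440220 in WT), which calcium inhibits, had 24.0 FPKM in WT and 24.7 FPKM in KO (ratio 1.03, interval 0.956 to 1.11). It made up 40.1% of the summed membrane cyclase level in WT and 41.9% in KO. Its closest relative Adcy5 (chromosome 16, 35154576 to 35305756 in WT) was the second most abundant, with 12.0 FPKM in WT and 9.32 FPKM in KO (ratio 0.776, interval 0.697 to 0.863). Both levels of Adcy6 were thus above those of all other cyclases, and the ratio of Adcy5 was within the limits.

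Adcy1 and Adcy8 are among the cyclases that calcium and calmodulin stimulate. Adcy1 (chromosome 11, 6963492 to 7078508) had 2.01 FPKM in WT and 3.02 FPKM in KO, from about 232 and 358 fragments. Its ratio of 1.504 (interval 1.27 to 1.78) was just above 3/2, and it fell under 3/2 with a pseudocount (1.48 with 0.1 FPKM and 1.34 with 1 FPKM) or when the libraries were rescaled to a median ratio of 1 (1.48) or the same upper quartile (1.49). Adcy8 lay just inside the limit, with 3.67 FPKM in WT and 5.21 FPKM in KO (ratio 1.42, interval 1.16 to 1.74). The pair summed to 5.68 FPKM in WT and 8.23 FPKM in KO, and the other membrane cyclases to 54.1 and 50.7 FPKM. Adcy3, also placed among the calcium-stimulated cyclases, is counted with the others. Its ratio went the other way (0.770, interval 0.625 to 0.948).

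The other cyclases lay within the limits. Adcy7, which G protein βγ subunits stimulate, had 7.42 FPKM in WT and 5.48 FPKM in KO (ratio 0.738). Adcy3, known from olfactory neurons and cilia, had 4.62 and 3.56 FPKM (ratio 0.770), and its locus overlaps the rows of Cenpo and Ptrhd1. Adcy9, which is insensitive to forskolin, had 3.07 and 3.89 FPKM (ratio 1.27). Adcy2, another cyclase stimulated by βγ subunits, had 2.61 and 3.21 FPKM (ratio 1.23). With ratios on both sides of 1, the membrane cyclases summed to nearly the same level, 59.8 FPKM in WT against 59.0 FPKM in KO. The soluble cyclase Adcy10 had 0.0208 FPKM in WT and was not listed in KO.

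The phosphodiesterases that hydrolyse both cAMP and cGMP included the clearest difference of the set. Pde1a, an enzyme activated by calcium and calmodulin (chromosome 2, 79674610 to 79969727 in WT, minus strand), had a level of 7.20 FPKM in the WT library and of 14.5 FPKM in the KO library. The ratio of Pde1a was 2.01 (interval 1.74 to 2.33, about 281 and 581 fragments), and it ranged from 1.89 to 2.02 over the alternative settings. The KO row of Pde1a ended at 79969569, before the WT row, so the gene is left out where only rows with the same bounds are kept. Pde1a made up 9.44% of the summed level of all catalytic phosphodiesterases in WT and 17.1% in KO.

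The close relatives of Pde1a did not have such a ratio. Pde1b (chromosome 15, 103333724 to 103360483 in WT), the most abundant of this group in WT, had 8.95 FPKM in WT and 8.39 FPKM in KO (ratio 0.937, interval 0.804 to 1.09), and Pde1c had 0.506 and 0.495 FPKM. Pde3a, which cGMP inhibits, had 6.997 and 8.68 FPKM (ratio 1.24). Pde2a, which cGMP stimulates, had 6.18 and 7.99 FPKM (ratio 1.29). Pde3b had 3.95 and 4.13 FPKM (ratio 1.04), Pde10a had 2.18 and 2.43 FPKM (ratio 1.12) and Pde11a had 0.850 and 1.17 FPKM (ratio 1.38). The group summed to 36.8 FPKM in WT and 47.8 FPKM in KO (ratio 1.30), and without Pde1a to 29.6 and 33.3 FPKM (ratio 1.12).

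No phosphodiesterase specific for cAMP passed the limits, and 6 of the 7 analysed had a ratio below 1. Of all genes analysed and listed in both libraries, 53.1% had a ratio above 1. The counting interval left out 1 in only 1 of these 7 enzymes, Pde8b. Pde4a (chromosome 9, 20970158 to 21017692) was the most abundant of them, with 7.27 FPKM in WT and 7.93 FPKM in KO (ratio 1.09, interval 0.933 to 1.27). Pde7a (chromosome 3, 19124664 to 19211464 in WT) had 6.92 and 6.33 FPKM (ratio 0.915, interval 0.794 to 1.06). Pde4b had 5.57 and 5.08 FPKM (ratio 0.912), and Pde4d, the isoform best known to bind β-arrestins, had 2.26 and 2.20 FPKM (ratio 0.973, interval 0.714 to 1.33). The 3 Pde4 genes analysed thus had intervals that included 1. Pde8a had 6.70 and 5.69 FPKM (ratio 0.849), and Pde7b had 1.51 and 1.37 FPKM (ratio 0.905). Pde8b was nearest the lower limit, with 2.30 FPKM in WT and 1.57 FPKM in KO (ratio 0.683, interval 0.487 to 0.954). Its locus overlaps that of Wdr41, and the summed rows had 13.0 and 13.4 FPKM (ratio 1.03). Pde8b gave the smaller part of this sum, so the summed ratio says little about Pde8b itself. The group summed to 32.6 FPKM in WT and 30.3 FPKM in KO (ratio 0.929).

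Of the enzymes specific for cGMP, Pde5a (chromosome 3, 122432076 to 122562292 in WT) had 6.56 FPKM in WT and 5.83 FPKM in KO (ratio 0.888, interval 0.770 to 1.02). Pde9a (chromosome 17, 31523179 to 31613254), which has a high affinity for cGMP, had 0.332 FPKM in the WT and 1.08 FPKM in the KO library. Its ratio of 3.24 was the highest among the genes of the set with at least 1 FPKM in one library and listed in both, but the interval reached from 1.26 to 9.87 because only about 6 and 20 fragments lay behind it. A pseudocount of 1 FPKM lowered the ratio to 1.56. In KO, Pde5a was lower and Pde9a higher by similar amounts of FPKM. The summed level of both genes was therefore close to equal (6.89 and 6.90 FPKM).

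The remaining 4 genes carry a Pde symbol but are not catalytic. Pde6d, a carrier of prenylated proteins (chromosome 1, 88439590 to 88479325 in WT), had 27.1 FPKM in WT and 27.3 FPKM in KO (ratio 1.01, interval 0.848 to 1.20). Pde4dip or myomegalin, which anchors PKA and Pde4d at the Golgi and centrosome (chromosome 3, 97493752 to 97692630), had 19.5 and 18.3 FPKM (ratio 0.938, interval 0.872 to 1.01). Both were more abundant than every catalytic phosphodiesterase. Pde6h, an inhibitory subunit of the cone photoreceptor enzyme (chromosome 6, 136903044 to 136912004 in KO), was not listed in WT and had 1.30 FPKM in KO, so that it has neither a ratio nor an interval.

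**Figure D3:**
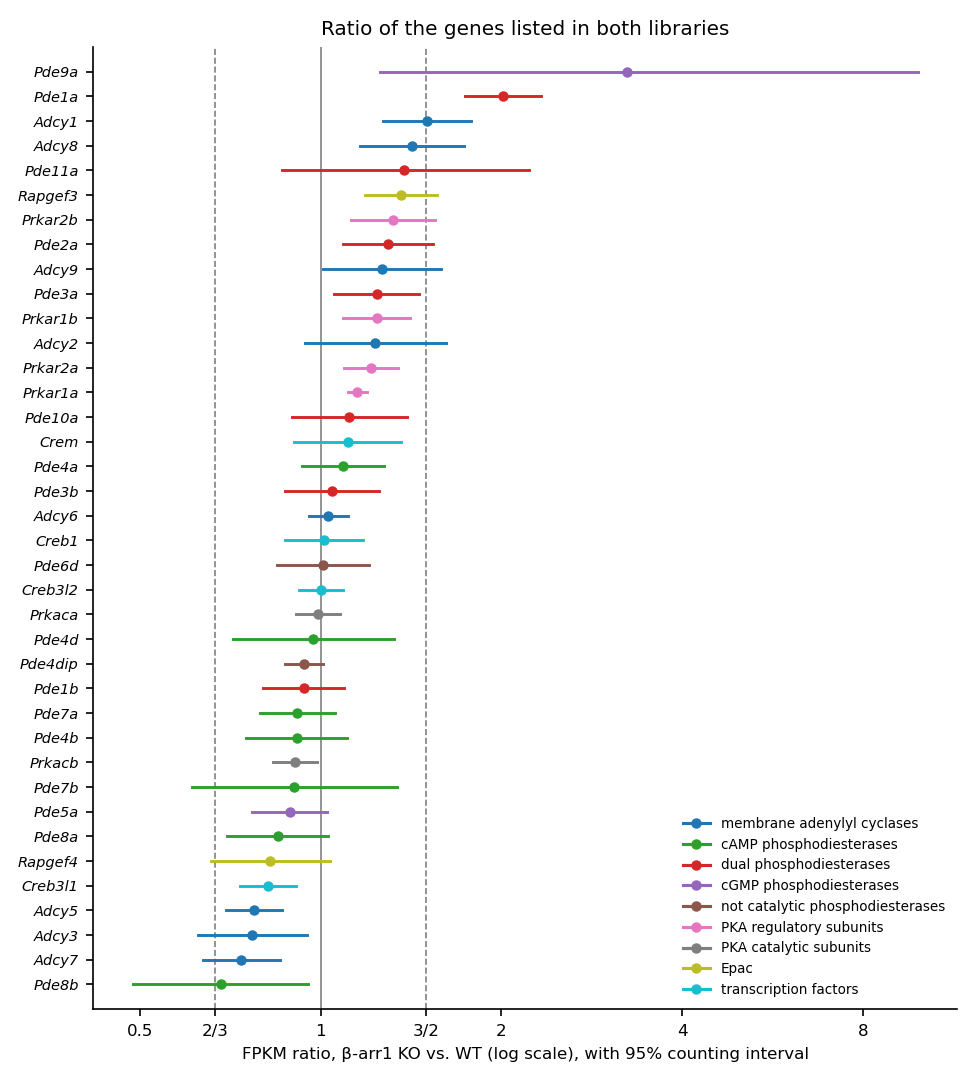
FPKM ratio of KO vs. WT (log scale) of the 38 genes with at least 1 FPKM in one library and listed in both, with 95% counting intervals and colours by role. Dashed lines mark 2/3 and 3/2. The interval of Pde1a (1.74 to 2.33) lies above 3/2, and all 4 PKA regulatory subunits have intervals above 1. Of all genes, 40.1% have an interval that leaves out 1.

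PKA was the most abundant part of the system. Prkar1a, the type I regulatory subunit (chromosome 11, 109510090 to 109530962 in WT), had 164 FPKM in WT and 189 FPKM in KO (ratio 1.15, interval 1.11 to 1.20). The KO row of Prkar1a starts 635 bases later. Prkar1b (chromosome 5, 139493258 to 139606340) had 18.5 and 22.9 FPKM (ratio 1.24, interval 1.09 to 1.41). The type II subunits Prkar2a (18.3 and 22.3 FPKM, ratio 1.21) and Prkar2b (8.83 and 11.6 FPKM, ratio 1.32) had ratios of similar size. All 4 regulatory ratios were above 1 and within the limits, and their counting intervals left out 1. Of all genes, 53.1% had a ratio above 1 and 40.1% an interval that left out 1. Prkar1a had about 5237 and 6204 fragments, and with so many fragments the interval is narrow.

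The catalytic subunits had ratios below 1. Prkaca (chromosome 8, 86496877 to 86520344) had 52.5 FPKM in WT and 52.0 FPKM in KO (ratio 0.990, interval 0.909 to 1.08). Prkacb (chromosome 3, 146392543 to 146475910) had 29.1 and 26.4 FPKM (ratio 0.908, interval 0.835 to 0.987). The regulatory subunits together had 209.9 FPKM in WT and 246.1 FPKM in KO, and the catalytic subunits 81.6 and 78.4 FPKM. The regulatory level was thus 2.57 times the catalytic level in WT and 3.14 times in KO, a ratio of 1.22 between the libraries (interval 1.14 to 1.31). Without Prkar1a, the regulatory level was 0.560 and 0.725 times the catalytic level (ratio 1.29). With 1 library per genotype, this difference has no replicate check.

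**Figure D4:**
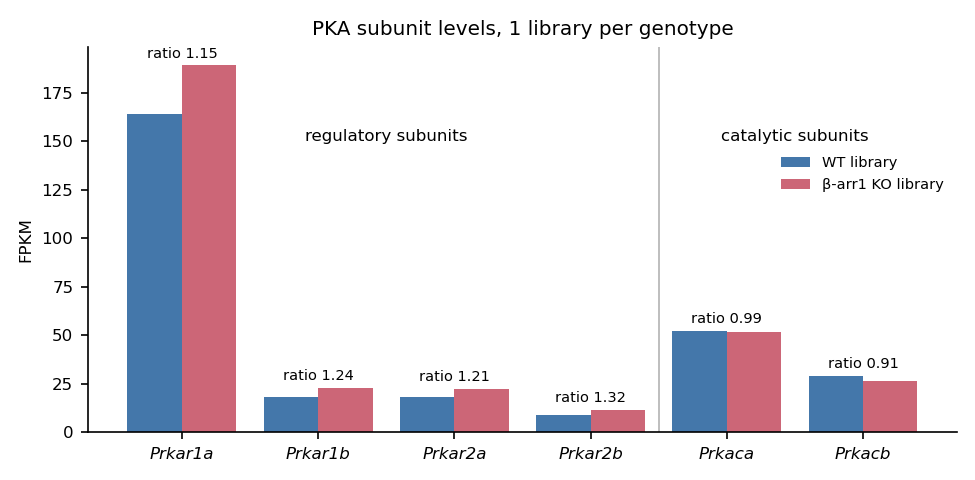
FPKM of the PKA regulatory and catalytic subunits in the WT library (blue) and the β-arr1 KO library (red), 1 library per genotype, with the ratio of KO vs. WT above each pair. The 4 regulatory subunits are higher in KO by ratios of 1.15 to 1.32, and the catalytic subunits have ratios of 0.99 and 0.91.

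The promoter windows of the genes were searched for the cAMP response element (CRE), because CREB and Crem bind it. The windows reach from 250 bases before to 50 bases after each RefSeq transcription start (GRCm38.p6), and 37 of the 46 genes have at least one. The palindrome TGACGTCA was in 1 of the 37 genes, Prkar1a, where 2 of 6 windows held it. Of all 27025 symbols, 2.03% held it. The half-site TGACG, which is also part of the palindrome, was in 18 of the 37 genes (48.6%), compared with 23.1% of all symbols, on either strand. These genes have several windows each, and by window the shares were closer, with 26.9% of their 78 windows and 20.8% of all 32851 windows. The stretch of 250 bases before the Prkar1a start (GRCm38.p6 chr11:109650699-109650948, plus strand) is shown with the CRE in capitals, which begins 49 bases before the start.
Prkar1a promoter: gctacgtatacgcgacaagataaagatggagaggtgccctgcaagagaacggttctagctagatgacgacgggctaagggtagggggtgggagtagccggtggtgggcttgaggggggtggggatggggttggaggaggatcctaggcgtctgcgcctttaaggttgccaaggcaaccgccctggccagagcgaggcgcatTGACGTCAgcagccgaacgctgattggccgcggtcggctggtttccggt
The same bases occur once on the chromosome in the build of the tables (mm9 chr11:109512013-109512262), inside the row of Prkar1a in both tables. A match describes the letters only and no binding was measured.

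The Epac genes lay within the limits on either side of 1. Rapgef3 or Epac1 (chromosome 15, 97575201 to 97598097) had 11.0 FPKM in WT and 14.9 FPKM in KO (ratio 1.36, interval 1.19 to 1.56). Rapgef4 or Epac2 (chromosome 2, 71819272 to 72095531) had 4.41 and 3.64 FPKM (ratio 0.825, interval 0.656 to 1.04). Rapgef3 was the more abundant in both libraries.

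The 4 transcription factors that reached 1 FPKM were also within the limits. Creb3l1, a membrane-bound factor of the endoplasmic reticulum that activates collagen genes (chromosome 2, 91822485 to 91864683 in WT), had 32.6 FPKM in WT and 26.6 FPKM in KO (ratio 0.818, interval 0.735 to 0.910), beside the lower fibroblast markers given above. Its relative Creb3l2 (chromosome 6, 37277293 to 37392289 in WT) had 16.8 and 16.9 FPKM (ratio 1.00, interval 0.922 to 1.09). Creb1, the main PKA substrate among them, had 4.50 and 4.57 FPKM (ratio 1.01, interval 0.874 to 1.18). Crem, which encodes activators and the repressor ICER, had 6.87 and 7.62 FPKM (ratio 1.11), and its row overlaps that of Gm6225.

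Other genes of the pathway were taken from a list of 69, of which 65 were listed and 56 had at least 1 FPKM in one library. Of these 56, 8 were higher and 5 lower (23.2%, compared with 17.8% of all genes), and their median ratio was 1.02. Without Akap8, Akap8l and Crtc2, whose calls rest on rows spanning neighbouring genes in one table, 7 were higher and 3 lower of 53 (18.9%). Such rows were not removed from the share of all genes. The 3 PKA inhibitors were within the limits, with Pkia at 22.4 and 23.0 FPKM, Pkig at 41.5 and 43.6 FPKM and Pkib at 1.27 and 1.06 FPKM. Among 14 A-kinase anchors, which hold PKA near its substrates, 3 were higher and 1 lower (28.6%). Without Akap8 and Akap8l, 2 of 12 were higher and none lower (16.7%, close to the 17.8% of all genes). Ezr, which also links membrane to actin, had 114 FPKM in WT and 179 FPKM in KO (ratio 1.57), and Akap6, an anchor at the nuclear envelope, had 2.70 and 4.82 FPKM (ratio 1.79).

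For 2 neighbouring anchors the rows did not separate the genes alike. Akap8 was not listed in WT and had 19.8 FPKM in KO, while Akap8l had 32.2 and 14.3 FPKM (ratio 0.444). The WT row of Akap8l spans both genes, and the summed rows gave a ratio of 1.06. The CREB coactivator Crtc2 had 98.5 FPKM in WT and 14.3 FPKM in KO (ratio 0.145), but its WT row also spans Jtb, Creb3l4 and Slc39a1, and the summed rows gave 0.901. These 3 calls therefore cannot be read as changes of the named genes. The other 9 coactivators and relatives of CREB were within the limits.

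Of 17 CREB target genes, 4 were higher and none was lower (23.5% changed), with a median ratio of 1.05. Of all genes, 17.8% were changed, 9.56% higher and 8.28% lower. The list was made with earlier results of these data known, so its share is a description only. With a pseudocount of 1 FPKM, Fosb (1.37) and Vgf (1.43) fell under 3/2. Ppargc1a, a coactivator of mitochondrial genes, had 1.30 FPKM in WT and 2.93 FPKM in KO (ratio 2.26, interval 1.72 to 2.98). The clock gene Per2 had 2.11 and 3.78 FPKM (ratio 1.80), the immediate early gene Fosb had 0.813 and 1.48 FPKM (ratio 1.82) and the secreted peptide gene Vgf had 3.87 and 5.99 FPKM (ratio 1.55). The other targets, with Fos (14.6 and 12.4 FPKM), Nr4a1 (5.61 and 5.73 FPKM), Sik1 (10.7 and 11.5 FPKM) and Bdnf (22.3 and 23.4 FPKM) among them, were within the limits.

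**Figure D5:**
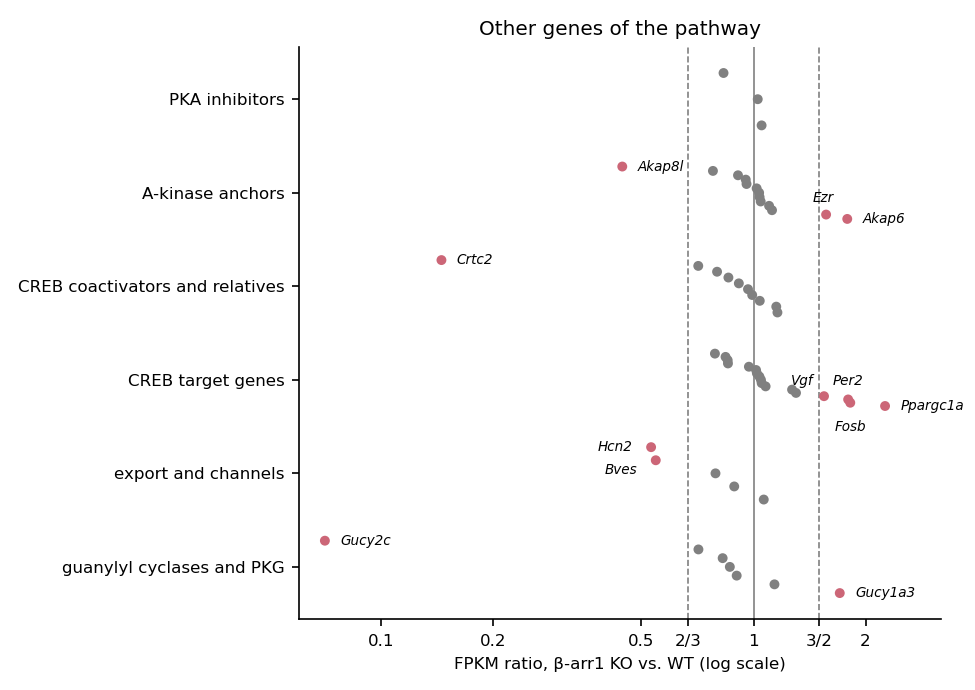
FPKM ratio of KO vs. WT (log scale) of the other pathway genes with at least 1 FPKM in one library and listed in both, by list, with genes past 3/2 or 2/3 (dashed lines) in red and named. Crtc2 and Akap8l lie to the left because their WT rows span neighbouring genes. Gucy2c, whose row overlaps no other, has the lowest ratio (0.0705), and Ppargc1a has the highest (2.26).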

How the data were processed

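Per the labels and the study's methods, the authors aligned read pairs to mm9 with TopHat (1.4.0 in the submitters' processing notes), ran Cufflinks and deposited 1 FPKM table per library. Counts were not used here. The tables were joined on the gene symbol, with the highest row kept for a repeated symbol. A gene not listed in a table was taken as 0, and no ratio was given for it. Ratios are quotients of the deposited FPKM values, with no pseudocount added. Starts count from 0 in the tables, and 1 was added.

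Depth was estimated from low FPKM values, which fall on steps of whole fragments, as 9.54 M mapped fragments in WT and 9.81 M in KO. Of the low genes used, 70.1% and 71.0% lay on a step within 5% (12.7% and 14.0% after shuffling). Fragments per gene used the longest protein-coding transcript of the NCBIM37 annotation, a choice made after seeing that the longest transcript of any kind did not match the row of Pde6h. No fragment number is given for Pde6h. Intervals of single genes are Clopper-Pearson at 95%. The 95% interval of the PKA regulatory over catalytic ratio uses a normal approximation on the log scale. Intervals understate the error for genes that express a shorter transcript.

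Every gene of the set with at least 1 FPKM in one library is named with both values. Those past the limits and the highest 2 of each role are given with locus and, where listed in both tables, interval, and pathway genes past the limits are named. Other pathway genes are named as examples chosen after their values were seen. All of these lie within the limits except Popdc3, which was under 1 FPKM in both libraries. The genes and lists were chosen with earlier results of these data known. Members of these families with no row in the tables were not analysed here. The computation was tested on simulated data. The software was scipy 1.17.1, pandas 2.3.3, numpy 2.4.6 and, for plots, matplotlib 3.10.9, run in Python 3.11.15.

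Alternatives were other minimum levels, pseudocounts of 0.1 and 1 FPKM, rescaled libraries, wider limits, summing of repeated or overlapping rows, and loci with equal bounds. The promoter motifs were also chosen with results known.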

Additional observations from a re-analysis of the deposited data

How the results depend on the processing

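The number of changed genes of the cAMP set, 4, depended on the minimum level. It was 7 with a minimum of 0.1 FPKM, 1 (Pde1a) with a minimum of 5 FPKM, 2 (Pde1a and Adcy1) with 1 FPKM required in both libraries and 2 (Adcy1 and Pde9a) with only loci of the same bounds. It was 3 to 5 under the other alternatives. The 13 changed pathway genes became 5 with a minimum of 5 FPKM, 5 with limits of 2 and 1/2 and 6 with the same bounds, and 9 to 15 under the others. Alternatives added after seeing the data were genes listed in both tables (3 of the cAMP set) and pathway genes without Akap8, Akap8l and Crtc2 (10). The Arrb1 ratio was 0.432 with a pseudocount of 1 FPKM. The Akap8l ratio turned to 1.06 when overlapping rows were added. The regulatory share of PKA FPKM was 3.82 percentage points higher in KO, and 6.14 without Prkar1a, an alternative chosen after seeing the data, and 3.76 from estimated fragments. Rescaling moved the median log2 ratio of all genes by at most 0.02. No paired analysis was possible because each genotype has 1 library. Low fragment numbers limit Pde9a and Gucy2c.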

Other observations

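On the cGMP side of the pathway, 7 guanylyl cyclase and PKG genes were analysed, of which 1 was higher and 1 lower (28.6%, compared with 17.8% of all genes). Gucy2c, the receptor for guanylin peptides, had 1.57 FPKM in WT and 0.110 FPKM in KO (ratio 0.0705, interval 0.0186 to 0.191), and the ratio was 0.433 with a pseudocount of 1 FPKM. Gucy1a3, a subunit of the nitric oxide receptor, had 1.99 and 3.39 FPKM (ratio 1.71, and 1.47 with a pseudocount of 1 FPKM, which is under 3/2), while its partner subunit Gucy1b3 was within the limits with 6.22 and 7.09 FPKM. The natriuretic peptide receptor Npr2 was the most abundant of these genes, with 38.8 and 27.6 FPKM (ratio 0.711).

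Among genes whose proteins bind cAMP directly, the channel Hcn2 had 3.11 FPKM in WT and 1.65 FPKM in KO (ratio 0.531, interval 0.367 to 0.760). Bves, a Popeye domain protein of striated muscle, had 1.17 and 0.638 FPKM (ratio 0.546), with an interval of 0.213 to 1.31 that included 1. Its relative Popdc3, named after its values were seen and under 1 FPKM in both libraries, had 0.0624 and 0.545 FPKM, from about 1 and 9 fragments. Another relative, Popdc2, was within the limits with 1.19 and 1.05 FPKM (ratio 0.888). Skeletal muscle markers were higher in KO, as given above, and the part of muscle cells in these values was not tested. The cAMP exporter Abcc4 had 4.36 and 3.45 FPKM (ratio 0.790).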
